A study of Mus musculus with 7 samples.

Results

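A set of 45 genes of DNA replication and S phase was followed in group 2 innate lymphoid cells (ILC2s) with and without the transcriptional repressor Gfi1. The genes were taken by name: origin licensing factors, the replicative helicase and its activators, the sliding clamp and its loader, polymerases and primase, lagging-strand enzymes, nucleotide supply, cyclin E with Cdk2, E2F factors and chromatin assembly. All 45 had a probe on the array, and 44 of the 25361 tested genes were these, since Ccne2 (cyclin E2) was well above background on none of the 3 knockout and none of the 4 wild-type arrays. Ccne2 log ratios lay between -0.04 and 0.25 and were not tested.

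Cells came from mice homozygous for the Gfi1GFP/GFP allele, a germline GFP knock-in that removes Gfi1 function in the whole animal and reports its promoter, or from Gfi1+/+ mice. Mice of both genotypes received daily IL-25 for 4 days, and on day 5 Lin-/Sca-1+/ICOS+/CD127+/c-Kit+ cells were sorted from mesenteric lymph nodes, pooling 6 animals per knockout sample and 3 per wild-type sample. All sorted cells were then grown for 6 days in IL-2 and IL-25, both at 50 ng/ml, plus IL-7 at 10 ng/ml, so the RNA describes cultured, cytokine-driven ILC2s and not cells fresh from the node. Knockout RNA was on 3 and wild-type RNA on 4 two-colour arrays, sample in red and a commercial universal mouse reference in green on each, spread over 3 slides: slide 1 held knockout 1 and wild type 4, slide 2 held knockout 2, knockout 3 and wild type 1, and slide 3 held wild type 2 and wild type 3 only. Unless another scale is stated, a value is the log2 ratio of red over green after normalization, and a difference is knockout minus wild type on that scale. Each sample is a pool, so p-values measure the spread between pools and not between animals.

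The replicative helicase, a ring of the Mcm2 to Mcm7 proteins, is loaded at origins in G1 by the origin recognition complex with Cdc6 and Cdt1. It is switched on at the G1/S transition by Cdc45, the GINS proteins and Mcm10. Transcription of most of these factors is driven by E2F proteins once cyclin-dependent kinases inactivate the retinoblastoma family, so in a dividing lymphocyte culture their RNA follows the fraction of cells that enter S phase. In bulk RNA a smaller fraction of such cells and less transcript per cell cannot be told apart.

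The promoters of these genes are taken first and were searched for the E2F motif, since E2F proteins drive many of the genes. Promoter windows of 250 bases before to 50 after the annotated start came from RefSeq (GRCm38.p6) and were matched by symbol. They covered 37 of the 45 genes, all but Mcm4, Gins1, Gins2, Gins4, Rfc2, Pole, Prim2 and Ccne2. The windows were searched on both strands for TTTCCCGC, TTTGGCGC, TTTCGCGC and TTTGCCGC, and neighbouring matches could share bases. At least 1 match was found for 15 of the 37 genes (40.5%), against 704 of 27025 genes with a window (2.6%). The stretches below show matches, in capitals, in some helicase, clamp loader and licensing genes, and Rrm1, the member that passed the test, whose window held none. They run 5′ to 3′ along the gene, and that of Mcm3, the one stretch wholly past the start, has 30 bases. A second Mcm7 match and the Cdt1 match, both past the start, are not shown.
Mcm3, chr1:20820264-20820293, minus strand: GCGGGAAAacttgggaagtTTTGGCGCcaa
Mcm5, chr8:75109336-75109386, plus strand: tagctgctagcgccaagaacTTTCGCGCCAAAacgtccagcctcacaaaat
Mcm6, chr1:128359725-128359835, minus strand: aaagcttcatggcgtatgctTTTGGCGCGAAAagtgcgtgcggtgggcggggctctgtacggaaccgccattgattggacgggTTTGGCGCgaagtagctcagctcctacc
Mcm7, chr5:138172018-138172068, minus strand: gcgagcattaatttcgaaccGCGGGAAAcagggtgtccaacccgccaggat
Rfc3, chr5:151651189-151651238, minus strand: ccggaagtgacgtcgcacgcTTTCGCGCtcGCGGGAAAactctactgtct
Orc1, chr4:108579407-108579456, plus strand: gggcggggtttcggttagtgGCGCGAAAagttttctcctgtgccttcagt
Cdc6, chr11:98907993-98908043, plus strand: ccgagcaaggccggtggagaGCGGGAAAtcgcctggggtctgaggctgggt
Rrm1, chr7:102441595-102441694, plus strand: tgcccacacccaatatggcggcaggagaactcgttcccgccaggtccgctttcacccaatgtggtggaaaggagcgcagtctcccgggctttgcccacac
In Mcm6 and Mcm5 a TTTGGCGC or TTTCGCGC overlapped a second match on the other strand, and Mcm6 held 3 matches. A match describes letters and not a bound site. The 15 genes with a match had a median difference of 0.35 and the 22 with a window and no match a median of 0.38.

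Before the members, the arrays themselves were compared. The share of probes with a red signal well above background was 70.6% to 80.9% on knockout and 67.4% to 80.5% on wild-type arrays. Median sample signals were 260 to 292 on knockout arrays and 181 to 267 on wild-type arrays, lowest at 181 and 190 on slide 3. All 44 tested members were well above background on all 7 arrays, and none had a saturated sample signal. The probe for Gfi1 read 4.28 ± 0.02 (SD, n = 3) in knockout and 2.02 ± 0.23 (SD, n = 4) in wild-type ILC2s. The knock-in leaves the promoter active and the probe's place relative to the cassette is not known here, so it checks no label. All 14 ILC2 markers examined, among them Gata3, Rora and Il1rl1, were above background on every array. The labels give no sex for the pooled mice. Xist, transcribed in female cells, lay above the Y-linked Ddx3y by 6.54 to 7.61 on knockout 3, wild type 3 and wild type 4, and the same value was -1.75 to -0.94 on the other 4 arrays (log2 ratios). This division crossed the genotypes, with 1 of 3 knockout and 2 of 4 wild-type arrays on the Xist-high side.

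Replication genes were modestly higher in knockout ILC2s as a group, and 1 of them passed the test alone. Of the 44 tested genes, 41 had a higher mean in knockout than in wild-type ILC2s (93.2%), against 46% of all tested genes. The median difference was 0.38 on the log2 scale, while the median over all 25361 tested genes was -0.01. With limma and Benjamini-Hochberg adjustment across the whole table, 7.5% of all tested genes were called in either direction. At that threshold 1 member (Rrm1) was called higher (adjusted p under 0.05), which is 2.27% of the members against 3.26% of all tested genes called higher. None was called lower, against 4.23% of all genes. Of all calls 43.6% were higher, a share of 55.4% when arrays were centred on the median in place of loess. With that centring 5 of the 44 members were called higher (Rpa2, Rfc3, Chaf1a, Rrm1 and Tk1), beside 895 of the 25361 tested genes. At an unadjusted p of 0.05, 25 of the 44 lay higher, or 56.8% against 9.01% of all tested genes, and none lay lower, against 10.5%. Genes driven together on the same 7 arrays are not independent, so these shares describe the set and carry no test.

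**Figure D1:**
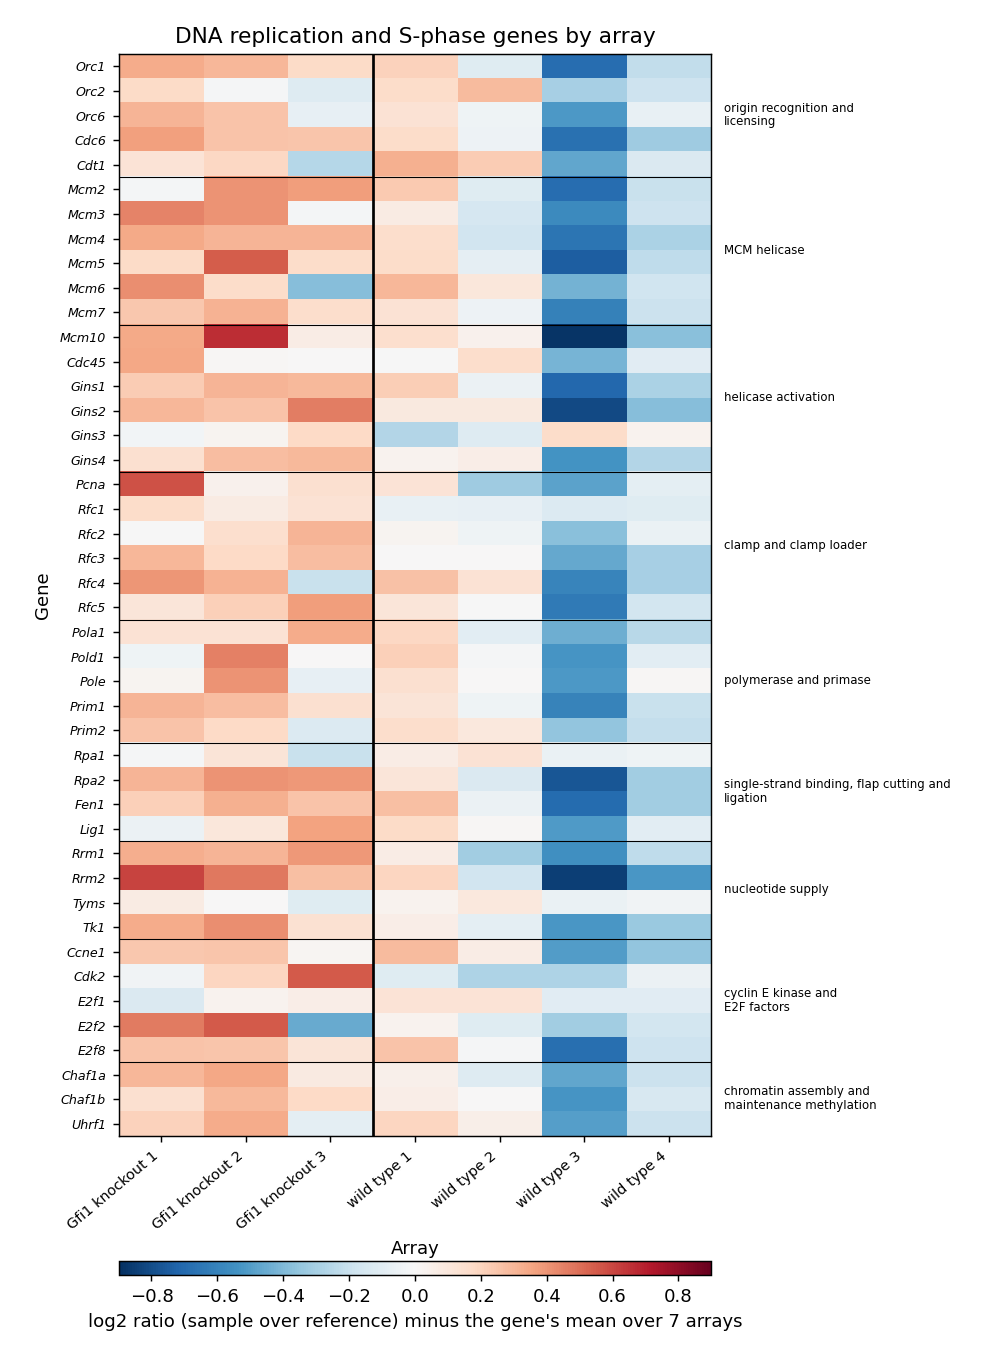
Log2 ratio of sample over reference for each of 44 genes (rows, grouped by role) on 3 Gfi1 knockout arrays (left of the black line) and 4 wild-type arrays (right), minus the gene's mean over the 7 arrays; red is above and blue below that mean. Wild type 3 is the lowest array in 38 of the 44 rows, and knockout 2 is above the mean in 43.

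Array by array, the members moved as a block. Their median deviation from each gene's own mean was 0.24, 0.27 and 0.15 on knockout arrays 1 to 3, against 0.13, -0.04, -0.52 and -0.19 on wild-type arrays 1 to 4. Averaged over arrays this is 0.22 ± 0.06 (SD, n = 3) in knockout and -0.15 ± 0.28 (SD, n = 4) in wild-type ILC2s, so the groups' medians did not overlap but wild type 1 lay close to knockout 3. Wild type 3 was the lowest of the 7 arrays for 38 members (86.4%), against 15.9% of all tested genes. Members varied more among wild-type than among knockout arrays in 37 of 44 cases, with a median SD of 0.14 in knockout and 0.29 in wild-type ILC2s. Over all tested genes the median SDs were 0.13 in knockout and 0.12 in wild-type ILC2s, without the wider wild-type spread seen in the members. The median Pearson r between pairs of members over the 7 arrays was 0.79, a description of arrays that share their sample and hybridization.

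**Figure D2:**
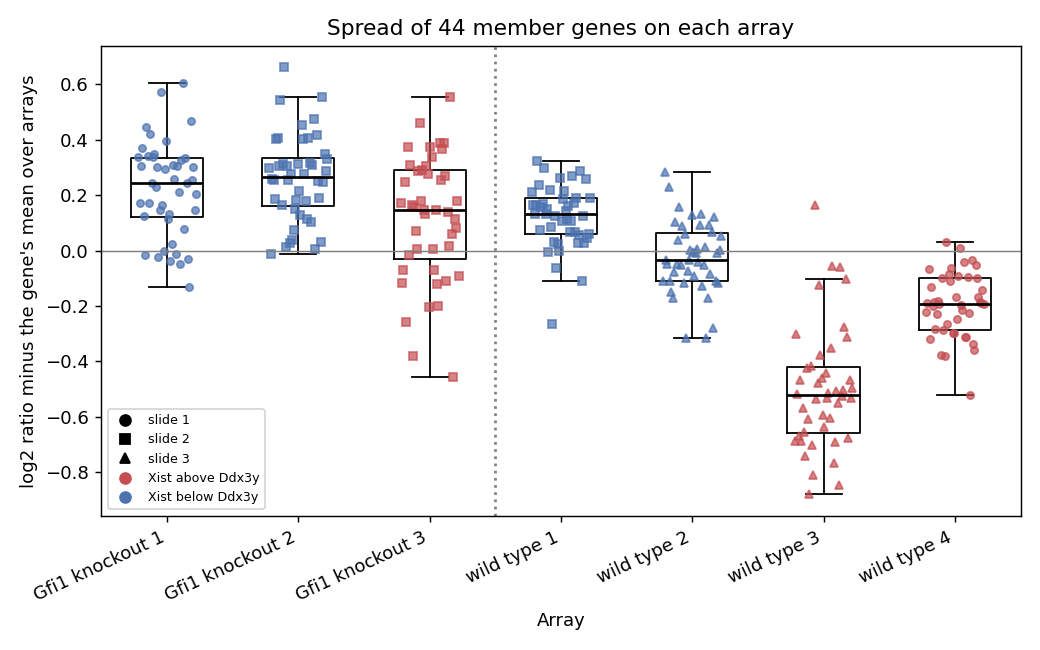
Deviation of each of the 44 genes from its own mean over 7 arrays (log2), by array; boxes give the median and quartiles, whiskers reach the last point within 1.5 interquartile ranges, marker shape gives the slide and colour whether Xist lay above or below Ddx3y. Box medians are 0.24, 0.27 and 0.15 for knockout arrays, against 0.13, -0.04, -0.52 and -0.19 for wild-type arrays.

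Slide and the Xist split both moved with the members. Within slide 1, knockout 1 exceeded wild type 4 by a median of 0.44, with 42 of 44 members higher. Within slide 2, knockout 2 and 3 together exceeded wild type 1 by a median of 0.08, with 31 of 44 higher. Taken singly, knockout 2 exceeded wild type 1 by 0.14 and knockout 3 exceeded it by 0.03. Within slide 3, where both arrays are wild type, wild type 3 lay below wild type 2 by a median of 0.53 (member difference -0.53), with 42 of 44 members lower. A pair of arrays of one genotype on one slide therefore differed by more than the genotypes did on either of the other slides. With slide as a fixed block the members' median difference was 0.23, no member was called by limma, 1 of 44 lay higher at an unadjusted p under 0.05 (2.27%, against 5.16% of all tested genes), and the smallest adjusted p was 0.244.

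In wild-type ILC2s, the Xist-high arrays lay below the other arrays by a median of 0.43 over the members (difference -0.43), and both lay below both others in 39 of 44 members (88.6%), against 22% of all tested genes. In knockout ILC2s the Xist-high array lay 0.15 below the mean of the others (difference -0.15), in 29 of 44 members. The genotype difference was 0.54 within the Xist-high arrays (1 knockout, 2 wild type) and 0.18 within the others (2 against 2), with 40 and 38 of 44 members higher. With the Xist minus Ddx3y value of each array as a covariate, the members' median difference was 0.35 and limma called 6 members higher, Rrm1, Rrm2, Tk1, Mcm3, Cdk2 and Chaf1a, beside 1030 of the 25361 tested genes. With slide and that covariate together the median was 0.20 and none was called (smallest adjusted p = 0.165). The part of sex or slide in the group difference was not tested beyond these fits.

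**Figure D3:**
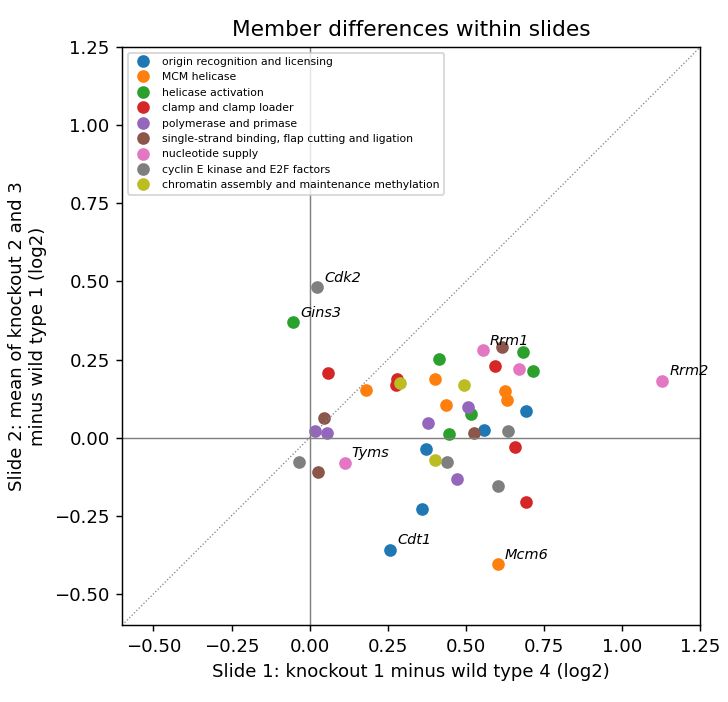
Log2 difference of each of the 44 genes on slide 1 (knockout 1 minus wild type 4, horizontal) and on slide 2 (mean of knockout 2 and 3 minus wild type 1, vertical), coloured by role; the dotted line marks equal differences. Most points lie below the line, with medians of 0.44 on slide 1 and 0.08 on slide 2, and Cdk2 and Gins3 stand farthest above it.

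Nucleotide supply had the highest median difference of the roles, 0.56 over its 4 genes, though Rpa2 and Mcm10 of other roles exceeded Rrm1 and Tk1. Ribonucleotide reductase makes deoxyribonucleotides from ribonucleotides, with Rrm1 as its large and Rrm2 as its small, S-phase-limited subunit. Rrm1 read -0.87, -0.89 and -0.81 on knockout arrays 1 to 3, against -1.13, -1.52, -1.75 and -1.43 on wild-type arrays 1 to 4. All knockout arrays lay above all wild-type arrays, and the level rose 1.51-fold in knockout ILC2s (log2 difference 0.60 ± 0.13 (SE), limma adjusted p = 0.0246). Its sample-channel level, in log2 units, was 13.16, 13.11 and 13.10 in knockout ILC2s, against 12.91, 12.57, 12.22 and 12.40 in wild-type ILC2s. Slide 1 alone gave an Rrm1 difference of 0.55 and slide 2 alone 0.28, and with slide as a block the difference was 0.40 and the call was lost. Leaving out knockout array 1, 2 or 3 or wild-type array 2 or 4 also ended the call, with the difference kept at 0.57 to 0.62. Without wild-type array 3 the difference was 0.50 and the limma adjusted p was 0.0412.

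Rrm2 read 1.02, 0.89 and 0.68 on knockout arrays 1 to 3, against 0.61, 0.24, -0.43 and -0.11 on wild-type arrays 1 to 4. The groups did not overlap, and the difference of 0.79 ± 0.21 (SE) was the largest among the members but missed the threshold (limma adjusted p = 0.0596). Its reference signal was lower on knockout arrays by 0.22 on the log2 scale (difference -0.22), and in the sample channel alone the difference was 0.57. Tk1, the thymidine kinase that salvages thymidine in S phase, read 0.37, 0.45 and 0.18 on knockout arrays 1 to 3, against 0.09, -0.05, -0.49 and -0.30 on wild-type arrays 1 to 4. Again the groups did not overlap, with a difference of 0.52 ± 0.14 (SE) and a limma adjusted p of 0.0595. Tyms, the thymidylate synthase that makes dTMP anew, stood apart from these 3 genes at -0.02 ± 0.08 (SE) (adjusted p = 0.952), with all 7 values between -0.01 and 0.19. The Tyms probe was dim, with mean sample-channel levels of 8.61 in knockout and 8.77 in wild-type ILC2s. The Rrm1 means were 13.12 and 12.52, so the flat Tyms result holds for that probe. The probes of Rfc3, Orc1 and Cdc45 were about as dim, and the same limit holds for their differences. Their means were 8.68, 8.40 and 8.66 in knockout and 8.20, 8.05 and 8.40 in wild-type ILC2s. Some called genes of other lists were dim too, among them Clspn, Brip1 and Cdkn1c, with wild-type means of 7.93, 7.68 and 7.38.

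The MCM helicase subunits were all higher in knockout means, by a median of 0.46, and none was called. Mcm4 read 0.56, 0.52 and 0.53 on knockout arrays 1 to 3, against 0.38, 0.05, -0.44 and -0.07 on wild-type arrays 1 to 4. The knockout arrays lay close together and above every wild-type array (difference 0.56 ± 0.16 (SE), limma adjusted p = 0.0751). Mcm5 read 0.25, 0.62 and 0.24 on knockout arrays 1 to 3, against 0.25, 0.00, -0.66 and -0.15 on wild-type arrays 1 to 4, so that wild type 1 lay at the level of the lowest knockout array (difference 0.51 ± 0.20 (SE), adjusted p = 0.178). Mcm3, Mcm2 and Mcm7 differed by 0.49, 0.44 and 0.42. Mcm6 was the exception at 0.12 ± 0.21 (SE) (adjusted p = 0.836). It read -0.80, -1.06 and -1.61 on knockout arrays 1 to 3, against -0.93, -1.12, -1.65 and -1.41 on wild-type arrays 1 to 4, and knockout 3 lay next to wild type 3 at the bottom. Its sign differed between slides, at 0.60 within slide 1 and -0.41 within slide 2, and its promoter window was the one with most matches among the MCM genes that have a window.

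Factors that recognise and license origins were less uniform. Cdc6, the ATPase that loads the MCM ring, read 1.21, 1.09 and 1.08 on knockout arrays 1 to 3, against 1.0, 0.79, 0.16 and 0.51 on wild-type arrays 1 to 4. The groups did not overlap (difference 0.51 ± 0.17 (SE), limma adjusted p = 0.128), and a second Cdc6 probe gave 0.61 with an adjusted p over probes of 0.0334. Orc1, the largest and cell-cycle-regulated subunit of the origin recognition complex, read -0.13, -0.17 and -0.30 on knockout arrays 1 to 3, against -0.26, -0.58, -1.16 and -0.69 on wild-type arrays 1 to 4. Wild type 1 lay above knockout 3 there (difference 0.47 ± 0.18 (SE), adjusted p = 0.173). Orc6, another subunit, differed by 0.29, while Orc2 and Cdt1, the partner of Cdc6 in loading, differed by 0.02 and 0.03. Cdt1 had its highest value on wild type 1 (-2.35) and its lowest on wild type 3 (-3.15), and within slide 2 it was -0.36. The median within slide 2 over these 5 genes was -0.04, against 0.37 within slide 1.

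Helicase activation showed the widest single range. Mcm10, which helps to fire the loaded helicase, read -0.53, -0.21 and -0.80 on knockout arrays 1 to 3, against -0.72, -0.83, -1.75 and -1.25 on wild-type arrays 1 to 4. Knockout 2 was highest and wild type 3 lowest, and wild type 1 lay above knockout 3 (difference 0.62 ± 0.24 (SE), limma adjusted p = 0.179). Gins2, a subunit of the GINS ring that joins Cdc45 and MCM, read -0.40, -0.45 and -0.25 on knockout arrays 1 to 3, against -0.62, -0.62, -1.52 and -1.09 on wild-type arrays 1 to 4. Here the groups did not overlap (difference 0.59 ± 0.20 (SE), adjusted p = 0.131). The GINS subunits Gins1 and Gins4 differed by 0.48 and 0.42, also without overlap, and Cdc45 by 0.21. Gins3, the remaining subunit, did not follow the others: it differed by 0.11 ± 0.11 (SE), and wild type 3, the low array for most members, was its second highest at -1.47, below knockout 3 at -1.45.

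The sliding clamp Pcna, which tethers polymerases to DNA, read 0.54, 0.01 and 0.12 on knockout arrays 1 to 3, against 0.09, -0.35, -0.51 and -0.12 on wild-type arrays 1 to 4. Knockout 1 stood well above the rest and wild type 1 lay between the other knockout arrays (difference 0.44 ± 0.17 (SE), limma adjusted p = 0.172). Of the clamp loader subunits, Rfc3 read -1.41, -1.53 and -1.43 on knockout arrays 1 to 3, against -1.71, -1.71, -2.17 and -2.01 on wild-type arrays 1 to 4. The groups did not overlap (difference 0.44 ± 0.12 (SE), adjusted p = 0.0654). Rfc5, Rfc4, Rfc2 and Rfc1 differed by 0.41, 0.29, 0.27 and 0.22. Rfc1, the large subunit, combined a small difference with the smallest wild-type spread of any member, at -1.30 ± 0.05 (SD, n = 3) in knockout and -1.52 ± 0.03 (SD, n = 4) in wild-type ILC2s (adjusted p = 0.117). A second Rfc4 probe gave 0.46.

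Among polymerase and primase genes, Prim1, the catalytic primase subunit, read -0.88, -0.91 and -1.04 on knockout arrays 1 to 3, against -1.07, -1.23, -1.79 and -1.38 on wild-type arrays 1 to 4. The groups did not overlap, though knockout 3 and wild type 1 differed by little (difference 0.43 ± 0.15 (SE), limma adjusted p = 0.152). Pola1, the catalytic subunit of polymerase alpha, read 0.02, 0.02 and 0.22 on knockout arrays 1 to 3, against 0.07, -0.20, -0.55 and -0.36 on wild-type arrays 1 to 4, with wild type 1 between knockout values (difference 0.35 ± 0.14 (SE), adjusted p = 0.204). Pold1, Pole and Prim2, the catalytic subunits of polymerases delta and epsilon and the large primase subunit, differed by 0.25, 0.21 and 0.18, with adjusted p between 0.539 and 0.587. Knockout 2 was the highest array for both Pold1 and Pole, with differences of 0.06 and 0.02 within slide 1.

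**Figure D4:**
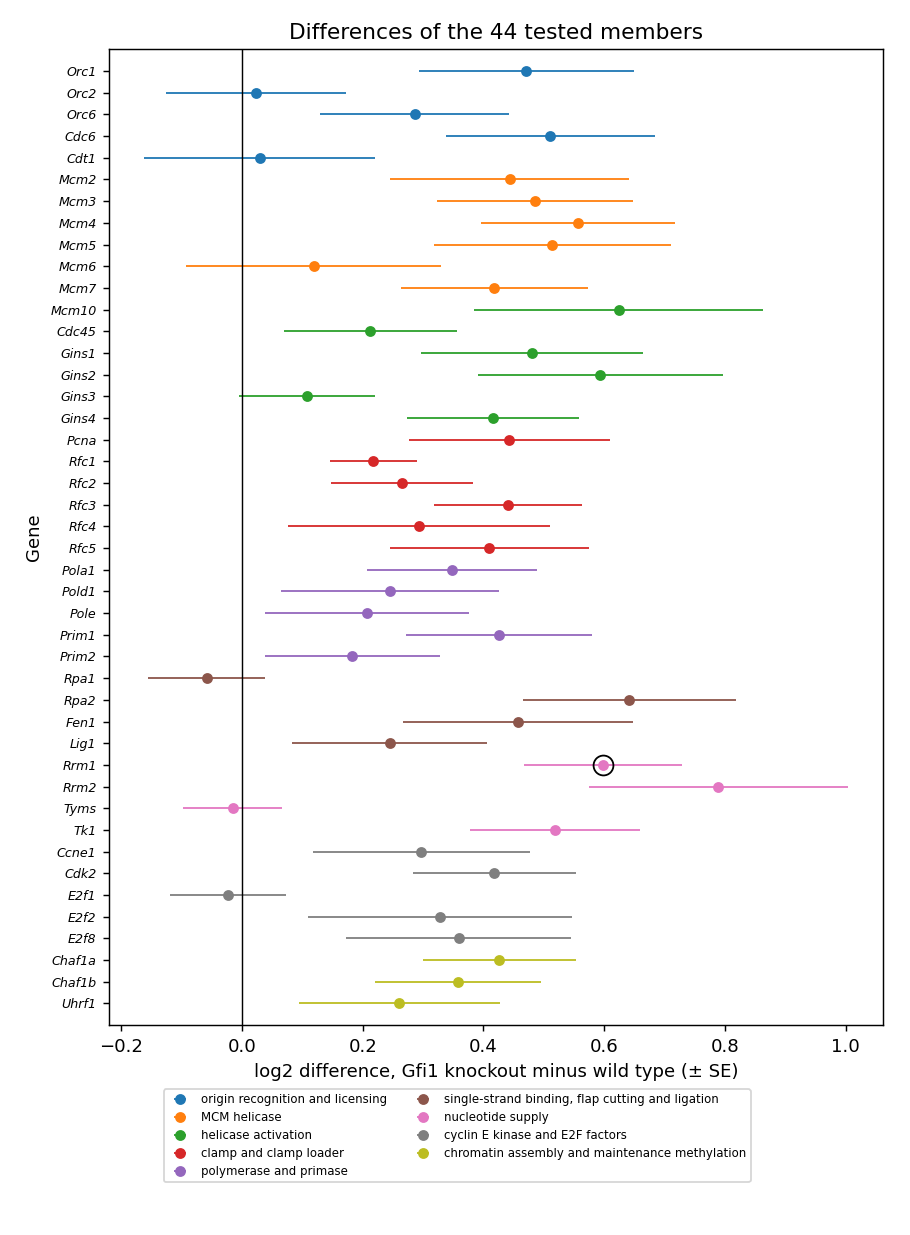
Log2 difference between 3 Gfi1 knockout and 4 wild-type arrays for each of the 44 tested genes, with its standard error from limma, coloured by role; the black ring marks Rrm1, the gene that passed an adjusted p of 0.05. Points lie to the right of 0 for 41 genes, with Rpa1, E2f1 and Tyms to the left.

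Replication protein A coats single-stranded DNA. Its subunits Rpa2 and Rpa1 had unlike differences, neither was called, and they were not tested against each other. Rpa2 read 0.55, 0.65 and 0.63 on knockout arrays 1 to 3, against 0.35, 0.12, -0.52 and -0.06 on wild-type arrays 1 to 4. Knockout arrays lay close together and above all wild-type arrays (difference 0.64 ± 0.18 (SE), limma adjusted p = 0.061). Rpa1, the large DNA-binding subunit, differed by -0.06 ± 0.10 (SE) (adjusted p = 0.822), with knockout 3 lowest. Fen1, the nuclease that trims Okazaki fragment flaps, read -0.45, -0.34 and -0.41 on knockout arrays 1 to 3, against -0.39, -0.71, -1.35 and -0.97 on wild-type arrays 1 to 4, where wild type 1 lay among the knockout values (difference 0.46 ± 0.19 (SE), adjusted p = 0.219). Lig1, which seals the fragments, differed by 0.24 (adjusted p = 0.481).

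The kinase and transcription factors at the G1/S boundary did not follow the common profile as closely. Cdk2, the kinase partner of cyclins E and A, read 1.59, 1.81 and 2.18 on knockout arrays 1 to 3, against 1.51, 1.34, 1.35 and 1.57 on wild-type arrays 1 to 4. The groups did not overlap, but knockout 3 was highest and wild type 3 was not the lowest array (difference 0.42 ± 0.13 (SE), limma adjusted p = 0.108), and slide 1 alone gave 0.02 and slide 2 alone 0.48. Ccne1 (cyclin E1) differed by 0.30 and had its highest value on wild type 1, and a second Ccne1 probe gave 0.13. E2f8, an atypical E2F repressor that is itself an E2F target, read 0.86, 0.85 and 0.72 on knockout arrays 1 to 3, against 0.86, 0.60, -0.07 and 0.42 on wild-type arrays 1 to 4, overlapping at wild type 1 (difference 0.36 ± 0.19 (SE), adjusted p = 0.344). E2f1, an activator of the programme, differed by -0.02 ± 0.10 (SE) (adjusted p = 0.936) with all arrays between 0.22 and 0.47. E2f2, another activator, split the knockout group, with 0.22, 0.31 and -0.70 on knockout arrays 1 to 3 against -0.56 to -0.22 on wild-type arrays. Without knockout array 3, E2f2 and Mcm3 were the 2 members called, both higher, with the smallest limma adjusted p at 0.00925. In that fit 673 of 25226 tested genes were called higher.

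Chromatin assembly factor 1 places new nucleosomes behind the fork. Its large subunit Chaf1a read -0.94, -0.89 and -1.16 on knockout arrays 1 to 3, against -1.20, -1.36, -1.71 and -1.43 on wild-type arrays 1 to 4. Groups did not overlap, though knockout 3 lay just above wild type 1 (difference 0.43 ± 0.13 (SE), limma adjusted p = 0.0804). Chaf1b read -1.41, -1.27 and -1.38 on knockout arrays 1 to 3, against -1.49, -1.55, -2.09 and -1.70 on wild-type arrays 1 to 4, again without overlap (difference 0.36 ± 0.14 (SE), adjusted p = 0.181), and a second probe gave 0.38. Uhrf1, which guides maintenance DNA methylation, differed by 0.26, whereas a second Uhrf1 probe gave -0.19 (adjusted p over probes 0.297), so its direction depended on the probe.

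Over all roles, the groups did not overlap, with knockout higher, in 17 of the 44 members (38.6%), against 8.07% of all tested genes, and in none with knockout lower, against 10.2%. Members higher on both slide 1 and slide 2 numbered 30 of 44 (68.2%), against 25.1% of all tested genes. In the sample channel alone 41 of 44 members were higher, by a median of 0.35, and none was called. The reference channel, which holds the same RNA on every array, differed by a median of 0.00 between the groups over the members, with a range of -0.22 to 0.17. With the scanner's own log ratio, 40 of 44 members were higher by a median of 0.37, and none was called. Relative to the reference RNA, 12 members were above it in both group means, 23 below it in both, and 9 lay on different sides, a comparison that is open to dye bias because no array had its dyes swapped.

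The medians of the other replication, S-phase and mitosis lists were also lowest on wild type 3, though not each of their genes was. That of the E2F and pocket protein regulators was lowest on wild type 4, at -0.14, against -0.06 on wild type 3. Among 33 tested replication genes outside the 45, 24 were higher in knockout means (median 0.33). That is 72.7%, against 46% of all tested genes. Of the 33, 4 were called higher (12.1%, against 3.26% of all tested genes) and 1 lower (against 4.23%). Pole4, an accessory subunit of polymerase epsilon, rose 1.41-fold (limma adjusted p = 0.0091). Clspn, the fork checkpoint adaptor claspin, rose 1.6-fold and Dna2, a flap nuclease and helicase, rose 1.56-fold. Topbp1, a replication initiation and checkpoint scaffold, rose 1.4-fold (adjusted p = 0.0452). Orc5, a subunit of the origin recognition complex, fell by 0.43 on the log2 scale (adjusted p = 0.0461), with readings of 0.09, -0.08 and -0.26 on knockout arrays 1 to 3, against 0.46, 0.43, 0.16 and 0.33 on wild-type arrays 1 to 4. With the scanner ratio the calls of Dna2, Topbp1 and Orc5 were lost (limma adjusted p = 0.0624, 0.0872 and 0.0727), and that of Topbp1 also in the sample channel (0.0623).

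Of 32 other S-phase and E2F target genes, 30 were higher (93.8%, against 46% of all tested genes, median 0.36). Of the 32, 5 were called, all higher (15.6%, against 3.26% of all tested genes). Shmt1, a folate enzyme that feeds thymidylate synthesis, rose 2.02-fold and Hells, a chromatin remodeller, 1.65-fold. Brip1, a helicase, rose 1.5-fold and the mismatch repair gene Msh6 1.32-fold (limma adjusted p between 0.0167 and 0.0244 for these 4). With the scanner ratio Shmt1, Hells and Msh6 were not called (limma adjusted p = 0.0538, 0.0553 and 0.0669). All 23 tested mitosis genes were higher in knockout means (median 0.28), against 46% of all tested genes. Nuf2, Kif23 and Kif20a were called (1.45-fold, 1.53-fold and 1.47-fold), or 13% of the list against 3.26% of all tested genes called higher. With the scanner ratio Kif23 and Kif20a were not called (limma adjusted p = 0.0882 and 0.0983), nor was Kif20a in the sample channel (0.0925). Within slide 2 the mitosis median was -0.01 and 10 of 23 were higher, against 0.37 and 22 of 22 with a value within slide 1.

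**Figure D5:**
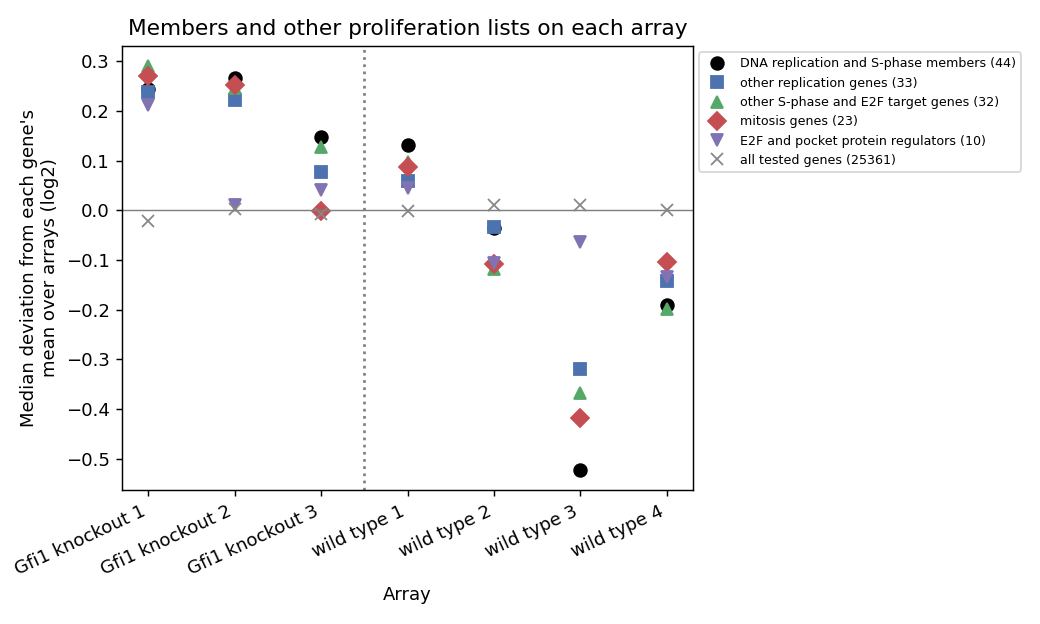
Median deviation from each gene's mean over the 7 arrays (log2) for 6 gene lists on 3 knockout arrays (left) and 4 wild-type arrays (right), with the number of tested genes in brackets. The replication, S-phase and mitosis lists are all lowest on wild type 3, at -0.52, -0.32, -0.37 and -0.42, while the medians over all tested genes stay between -0.02 and 0.01. The E2F and pocket protein regulators are lowest on wild type 4, at -0.14.

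The regulators upstream of these genes did not move as one. Among 10 E2F and pocket protein regulators 8 were higher in knockout means (80%, against 46% of all tested genes), with a median of 0.13. At an unadjusted limma p under 0.05, 3 lay higher (30%, against 9.01%) and none lower, and none was called. Cdk4, the cyclin D kinase, and E2f6, a repressor, had the smallest p, at differences of 0.28 and 0.25. Of 7 CDK inhibitor genes, 3 were called higher (42.9%, against 3.26% of all tested genes) and 2 lower (against 4.23%). Cdkn2b, the Cdk4 and Cdk6 inhibitor p15, rose 3.54-fold (limma adjusted p = 0.000674), Cdkn2c, the related p18, rose 2.33-fold and Cdkn1c, the inhibitor p57, rose 1.53-fold. Cdkn1b, the Cdk2 inhibitor p27, fell by 1.07 on the log2 scale (adjusted p = 0.0474), and Cdkn2d, p19, fell by 0.44. Cdkn1b read 1.38, 1.02 and 0.05 on knockout arrays 1 to 3, against 1.70, 1.74, 2.23 and 1.88 on wild-type arrays 1 to 4, with knockout 3 lowest by a wide margin and no overlap between the groups. Its call was lost with the scanner ratio (limma adjusted p = 0.108) and in the sample channel (0.088), and that of Cdkn2d with the scanner ratio (0.0638).

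Markers of other cell types were set beside these results. None of 11 tested T cell markers was called, with Cd5 at 0.50 and Zap70 at -0.32, and the list's summed sample-channel signal was 33500 to 47300 on knockout and 39400 to 47300 on wild-type arrays. All 7 tested NK and ILC3 markers were higher in knockout means (median 0.31), and 1 was called higher (14.3%, against 3.26% of all tested genes). At an unadjusted limma p under 0.05, 4 of the 7 lay higher (57.1%, against 9.01% of all tested genes). That list's summed signal was 1760 to 2560 on knockout and 1310 to 1430 on wild-type arrays, with Ncr1 above background on no array. No B cell or myeloid marker was called (smallest p in each list: Pax5 -0.15 and Cd79a 0.17, Adgre1 0.63 and Cebpa 0.15). Summed B cell marker signal was 13700 to 16900 on knockout and 16100 to 19800 on wild-type arrays, myeloid marker signal was 3660 to 3810 on knockout and 3210 to 3840 on wild-type arrays, and S100a8 was above background on no array. Of 4 tested mast cell and basophil markers, 2 were called lower, against 4.23% of all tested genes. Cpa3 and Hdc fell by 0.51 and 0.36 on the log2 scale, while Mcpt4 and Tpsb2 differed by 0.01 each and were not called (summed signal 1100 to 1150 on knockout and 1100 to 1350 on wild-type arrays). The Cpa3 call was lost with the scanner ratio (limma adjusted p = 0.179) and in the sample channel (0.183), and that of Hdc in the sample channel (0.165). Fcer1a and Ms4a2 were above background on no array. The ILC2 list ran against the members, with 3 of 14 called lower (Il1rl1, Gata3 and Ly6a), against 4.23% of all tested genes. Il17rb was called higher (7.14%, against 3.26%), and the list's highest median deviation, 0.33, was on wild type 3. The part of cell composition in the replication gene differences was not tested.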

How the data were processed

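Median spot and background intensities were read from the scanner files that the authors deposited, made with Agilent Feature Extraction 11.0.1.1 per the file headers (10.7.3.1 per the submitters' processing notes). The scanner's log10 ratio of red over green and the log2 values of the deposited series table, equal to that ratio within 0.001 on every array, are background-subtracted and dye-normalized per the file headers and served as alternatives. Outlier spots (2597) were left out, background was corrected with normexp (offset 50), and ratios were loess-normalized within arrays. Of 39429 probes, 30311 passed the filter (red signal above background on 3 or more arrays), and the brightest stood for each of 25361 genes. A gene symbol was found for 16702 of these. The rest were counted by the transcript identifier of the probe, so a gene can be counted more than once among them. Shares of all tested genes include them. limma 3.58.1 in R 4.3.3 compared 3 knockout with 4 wild-type arrays, with Benjamini-Hochberg adjustment and a threshold of 0.05; it was checked on simulated data. An exact two-sided permutation test of 3 against 4 arrays cannot go below p = 0.0571.

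The members and gene lists were chosen with earlier results of these data known. All 45 members are named. Per-array values are given for called members and the largest differences of each role (those of Mcm6, Cdt1, Gins3, E2f2, Orc5 and Cdkn1b were added after seeing them), and other lists are named by their called genes, up to 6, or by the smallest p; some called genes of these lists are not reported here. Each slide has 1 scan time, so slide and scan cannot be told apart. No dye swap was made.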

Additional observations from a re-analysis of the deposited data

How the results depend on the processing

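Member genes called higher numbered 1 in the analysis reported, where 828 of the 25361 tested genes were called higher. None was called with slide as a fixed block, in the sample channel alone, or with the log ratio of the scanner or of the series table. In that order 233, 730, 579 and 578 of all tested genes were called higher. The member number was 5 with median centring in place of loess (Rpa2, Rfc3, Chaf1a, Rrm1 and Tk1) and 4 with a trended and robust eBayes. It was 6 with slide as a random block or with the Xist minus Ddx3y covariate. For these settings in turn, 895, 833, 941 and 1030 of the 25361 tested genes were called higher. Alternatives chosen after seeing the data gave 0 members without slide 3, 2 without wild type 3 and knockout 3, and 0 with slide and the covariate together. Genes called higher were 268 of 25191, 587 of 25121 and 378 of 25361 tested in these fits. Leaving out 1 array gave 0 to 6 member calls, 1252 to 1888 calls over all genes (519 to 869 higher), and a member median of 0.26 to 0.47. No alternative called a member lower. Genes called, 1901 as reported, numbered 478 with slide as a fixed block, 1101 without wild type 4 and knockout 3, 587 without slide 3 and 789 with slide and the covariate. Median centring raised the share of calls that were higher to 55.4%, against 43.6% as reported. The member median was 0.081 within slide 2 alone. The causes were not tested.

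Rrm1 stayed higher throughout, and its call was lost (limma adjusted p = 0.0536 to 0.244) under the settings named beside it, the scanner ratio, series table, sample channel, replicate block, and the removals of arrays in pairs or of slide 3. The labels do not say whether arrays of equal number were paired, and the analysis reported did not pair them. Correlations of deviations were 0.0363, 0.24 and 0.0208 for equal numbers 1 to 3, within a range of -0.24 to 0.27 over all combinations. Arrays of equal number 1 to 3 also lay on the same side of the Xist split. These values cannot decide whether the samples were paired. With the replicate block, 1080 genes and 1 member, Mcm3, were called (adjusted p = 0.0471), and the member median was 0.37.

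Some members changed sign, most of them near 0 in the analysis reported (Lig1, Pold1 and Pole were at 0.24, 0.25 and 0.21). Orc2 was -0.0063 with the scanner ratio and with the series table, -0.19 in the sample channel, -0.036 with the replicate block, -0.034 with the covariate, -0.0083 without wild type 3 and knockout 3, and -0.035 with slide and the covariate. Cdt1 was -0.095 with the slide block, -0.010 with the replicate block, -0.052 with the covariate, -0.077 without slide 3 and -0.18 with slide and the covariate. Rpa1 was 0.053 with median centring, 0.046 in the sample channel and 0.0037 without wild type 4 and knockout 3. Tyms was 0.0018 with the slide block, 0.022 without wild type 4 and knockout 3 and 0.013 without wild type 3 and knockout 3. E2f1 was 0.064 with median centring and Lig1 -0.0018 without wild type 3 and knockout 3. With slide and the covariate Mcm6 was -0.069, Pold1 -0.016 and Pole -0.028. Leaving out 1 array gave ranges of -0.12 to 0.17 for Cdt1, -0.061 to 0.036 for E2f1, -0.057 to 0.34 for Mcm6, -0.074 to 0.12 for Orc2, -0.13 to 0.026 for Rpa1 and -0.058 to 0.035 for Tyms.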
